A study of Rattus norvegicus with 4 samples.

Results

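The genes described here encode the enzymes of mitochondrial and peroxisomal beta-oxidation and the peroxins that build peroxisomes. They were chosen by name and not by their values, though with earlier results of these data known. A probe was found by its accession for 41 of 41, out of 16581 named genes on the array. The RNA came from NR8383, an alveolar macrophage line obtained by lavage of a normal rat lung, after 4 h with carbon black (Printex 90), a carbon nanoparticle powder, at 0.9 cm2 of particle surface per cm2 of culture. The group consisted of 4 biological replicates at 20 passages, each on its own 1-colour Agilent array, and all cells came from this 1 line. The series set exposed cells against cells incubated without particles, which were not analysed here, so the values are levels in exposed cells and hold no effect of carbon black.

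Beta-oxidation shortens fatty acids from the carboxyl end by repeated rounds of dehydrogenation, hydration, dehydrogenation and thiolysis. Mitochondria receive long chains as carnitine esters and pass the electrons to the respiratory chain, whereas peroxisomes shorten very long and branched chains and pass the electrons of the opening step to oxygen. Peroxins insert the peroxisomal membrane proteins, import the folded matrix enzymes and divide the organelle. Alveolar macrophages clear surfactant from the air spaces and so take up much lipid, which these pathways can degrade.

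Promoters were read from a RefSeq table of GRCr8, 250 bases before to 50 after each start, which held 35 of the 41 genes. Cpt1b, Acadl, Decr1, Acaa2, Pex2 and Pex6 were not in it. The letters GGGCGG of the GC box, searched on both strands, were in 28 of 35 promoters (80%), against 33.1% of all 33469 promoters and 62.2% of the 7051 promoters of named genes with signal on every array, as defined below. AGGTCA, the core to which nuclear receptors such as the PPARs bind, was in 6 of 35 (17.1%), against 16.2% and 12.1%. These were the promoters of Echs1, Hadhb, Eci1, Acadvl, Eci2 and Hsd17b4. The direct repeat of AGGTCA spaced by 1 base, which contains that core and is the PPAR response element in its strict form, was in 0 of 35 and in 0.0538% of all promoters. TATAAA was in 3 of 35 (8.57%, against 14.2% and 6.96%) and CCAAT in 12 of 35 (34.3%, against 37.5% and 39%). The median GC share was 60%, against 51.7% over all promoters and 60.7% over those of the detected genes. Such letters are a description of the window and not a site.

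Hadha and Hadhb, the subunits of the mitochondrial trifunctional protein, are transcribed away from each other, with starts 301 bases apart. Their promoter windows share the 200 bases at chr6:31907551-31907750, shown on the + strand, along which Hadha is transcribed, with the GC box in capitals.
Hadha and Hadhb: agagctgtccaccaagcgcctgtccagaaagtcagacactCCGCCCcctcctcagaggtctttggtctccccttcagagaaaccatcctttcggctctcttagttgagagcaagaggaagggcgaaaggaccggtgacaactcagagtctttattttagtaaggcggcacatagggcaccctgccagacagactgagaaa
The next 4 promoters show how the genes differ, each as the 100 bases directly before the start on the gene's own strand, with GC boxes and AGGTCA on either strand in capitals. That of Cpt1a lies at chr1:209996060-209996159 (+ strand) and has neither. That of Acadvl lies at chr10:55236706-55236805 (- strand) and has 1 AGGTCA, that of Eci2 at chr17:30075666-30075765 (+ strand) has 3 GC boxes, and that of Ehhadh at chr11:92746309-92746408 (+ strand) has 1.
Cpt1a: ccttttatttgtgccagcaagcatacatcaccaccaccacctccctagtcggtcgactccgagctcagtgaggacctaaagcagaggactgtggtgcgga
Acadvl: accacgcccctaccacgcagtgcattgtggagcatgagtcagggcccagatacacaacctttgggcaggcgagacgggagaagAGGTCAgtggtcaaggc
Eci2: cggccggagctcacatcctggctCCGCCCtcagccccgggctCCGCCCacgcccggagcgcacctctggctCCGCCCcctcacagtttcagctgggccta
Ehhadh: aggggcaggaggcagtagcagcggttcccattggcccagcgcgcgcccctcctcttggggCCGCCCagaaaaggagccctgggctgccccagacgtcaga

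Nearly the whole set had signal in exposed cells. A gene was counted as detected on an array if the scanner software had marked at least 50% of the spots of 1 of its probes as well above background. Of the 41 genes, 37 (90.24%) were detected on all 4 arrays, against a background of 47.9% of all named genes (7947 of 16581). All 24 genes of activation, carnitine transfer, mitochondrial oxidation and electron transfer were among them, and 13 of the 17 peroxisomal enzymes and peroxins (76.47%). Pex3 was detected on 3 arrays and Acox3 on 1, and Ehhadh and Pex26 were not well above background on any. Signal is summed over all cells of a culture, so fewer expressing cells and less RNA per cell cannot be told apart.

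**Figure D1:**
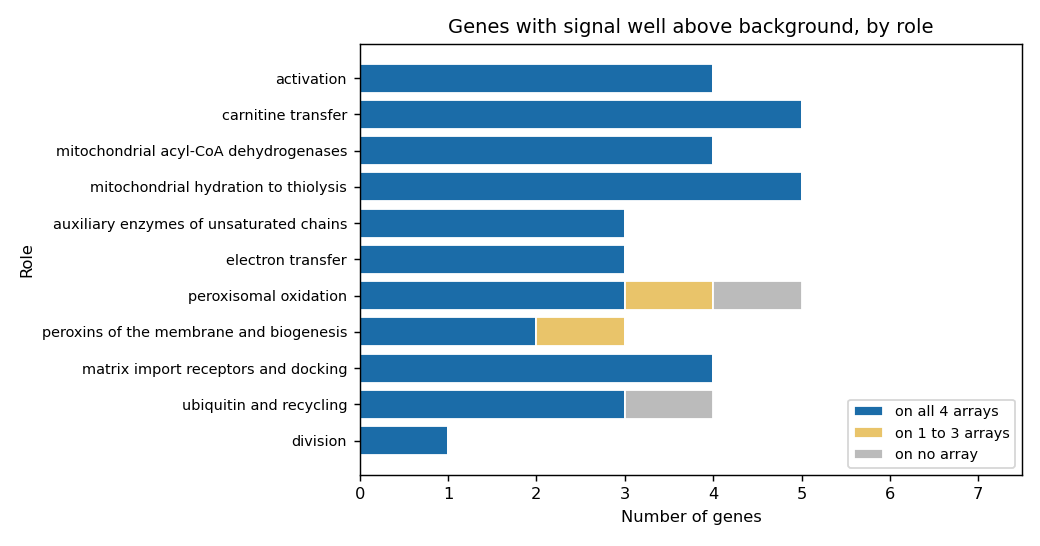
Number of genes (horizontal axis) with signal well above background on all 4 arrays, on 1 to 3 arrays or on none, by role (vertical axis). The mitochondrial roles are filled to their full number, and the missing genes are Acox3 and Ehhadh of peroxisomal oxidation, Pex3 of membrane biogenesis and Pex26 of receptor recycling.

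The cells carried the markers of their type. All 12 macrophage markers, among them Cd68, Ptprc and Spi1, were detected on every array, and 29 of 35 measured markers of lung epithelium, fibroblasts, endothelium, T cells, granulocytes, adipocytes and hepatocytes on none. Camp and Cfd were detected on all arrays, Cdh5 and S100a8 on 2 and Lep and Tf on 1, and Plin1 was not matched to a probe. Of the hepatocyte markers, Alb, Apoa1 and Ttr were detected on no array and Tf on 1. Of the measured adipocyte markers, Adipoq was detected on no array, Lep on 1 and Cfd on all 4. The median background signal was 29 to 30 on the 4 arrays, but the upper tail of the negative controls differed. Negative control spots had a 99th percentile of 27.1 on replicate 1, against 4.95 to 7.40 on the others, and the 75th percentile of intensity over probes ranged from 63.7 to 109.

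Levels are log2 processed intensity relative to the 75th percentile over the probes of the same array, which is 0, and are given for replicates 1, 2, 3 and 4 in that order, with mean and SD over n = 4. They describe 1 probe each, so that the level of a gene is not set against that of another gene.

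Fatty acids are first joined to coenzyme A by the long-chain acyl-CoA synthetases, and all 4 synthetase genes were detected on all arrays. Acsl5, whose enzyme sits at mitochondria and the endoplasmic reticulum, had levels of 5.64, 5.92, 5.78 and 5.74 (5.77 ± 0.11). Acsl1, the main synthetase feeding oxidation in muscle and fat, had 3.70, 3.87, 3.61 and 3.88 (3.77 ± 0.13). In both genes the 4 arrays lay within 0.28 log2 units. Acsl4, which prefers arachidonic acid, had levels of 0.72, 0.66, 0.85 and 0.90 (0.78 ± 0.11), with the lowest on replicate 2. Acsl3, a synthetase of lipid droplets, had 0.53, 0.73, 0.48 and 0.66 (0.60 ± 0.11).

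The carnitine shuttle had the widest spread, with a median SD of 0.21 log2 units, of the roles with at least 3 tested genes. That median is the SD of Cpt1b, and the SDs were not adjusted for level. Relative to genes of like level, the variance ran from 0.64-fold in Cpt1b to 3.64-fold in Cpt1a. Cpt1a, the outer-membrane carnitine palmitoyltransferase that sets the entry of long chains and is blocked by malonyl-CoA, had levels of 1.38, 1.90, 1.87 and 2.03 (1.80 ± 0.28). Replicate 1 was low and the others lay close together, a span of 0.65 log2 units or 1.57-fold. Its muscle form Cpt1b had -0.83, -1.19, -0.77 and -1.12 (-0.98 ± 0.21), so that replicates 1 and 3 lay above replicates 2 and 4. Cpt2, which returns the chain to coenzyme A in the matrix, had 4.38, 4.66, 4.35 and 4.34 (4.43 ± 0.15), with replicate 2 above 3 closely spaced values. Crat, the acetyltransferase that buffers acetyl-CoA, had 4.84, 5.13, 5.08 and 4.87 (4.98 ± 0.15). Crot, the octanoyltransferase that exports shortened chains from peroxisomes, ran the other way, with 1.38 on replicate 1 and 0.92, 0.98 and 0.88 on the others (1.04 ± 0.23). Cpt1a and Crot thus stood lowest and highest on the same array.

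The acyl-CoA dehydrogenases, which open each round on chains of different length, had the smallest median SD of those roles, 0.080 log2 units over the 4 genes. This SD too was not adjusted for level. Acadvl, the very-long-chain enzyme of the inner membrane, had levels of 3.83, 3.91, 3.86 and 3.82 (3.85 ± 0.042). Acadm, the medium-chain enzyme, had 4.11, 4.14, 4.01 and 4.16 (4.11 ± 0.066). These spans were 0.092 and 0.15 log2 units. Acadl, the long-chain enzyme, had 5.77, 5.99, 5.92 and 5.92 (5.90 ± 0.093). Acads, the short-chain enzyme, had 6.42, 6.58, 6.51 and 6.36 (6.47 ± 0.097). Both were spotted 10 times per array, and the median SD between single spots of an array was 0.10 for Acadl and 0.072 for Acads. The SD between arrays, 0.093 and 0.097, is that of means over the 10 spots, so it is not a like measure.

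The enzymes that complete the round differed in spread. Hadhb, the thiolase subunit of the trifunctional protein, had levels of 1.30, 2.03, 1.68 and 1.80 (1.70 ± 0.31), the widest spread of all 38 genes that entered the variance test. Replicate 2 was 1.66-fold above replicate 1. Hadha, its partner with hydratase and dehydrogenase activity, had 6.08, 6.28, 6.13 and 6.06 (6.14 ± 0.10), so that the highest array was the same but the lowest was not. As deviations from the gene's own mean, Hadha minus Hadhb was 0.35, -0.19, 0.013 and -0.17 log2 units on the 4 arrays. These are the genes that share the promoter bases shown above. Hadh, the short-chain hydroxyacyl-CoA dehydrogenase, had 5.33, 5.51, 5.36 and 5.22 (5.35 ± 0.12), and its deviations stayed within 0.056 log2 units of those of Hadha. The comparisons of Hadhb and Hadh with Hadha used the brightest of the 3 Hadha probes. On replicate 2 the dimmest Hadha probe was at -0.14, where Hadh was at 0.16. Hadh was also spotted 10 times, with a median SD within an array of 0.054. Echs1, the short-chain hydratase, had 5.45, 5.67, 5.67 and 5.46 (5.56 ± 0.12), with replicates 2 and 3 together above replicates 1 and 4. Acaa2, the medium-chain thiolase, had 2.89, 3.08, 2.95 and 3.00 (2.98 ± 0.080).

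All 3 auxiliary genes for unsaturated chains were highest on replicate 2. Eci1, the mitochondrial enoyl-CoA isomerase, had levels of 2.16, 2.55, 2.33 and 2.42 (2.36 ± 0.16). Eci2, the isomerase found in peroxisomes as well as mitochondria, had 3.64, 3.92, 3.70 and 3.66 (3.73 ± 0.13). Decr1, the dienoyl-CoA reductase, had 4.01, 4.13, 3.90 and 3.78 (3.95 ± 0.15), and its pair of spots differed with a median SD of 0.10 within an array.

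Electron transfer flavoprotein takes electrons from the dehydrogenases and hands them to ubiquinone through its oxidoreductase. Its alpha subunit gene Etfa had levels of 1.12, 1.14, 1.20 and 1.18 (1.16 ± 0.035), the smallest spread of the set, a span of 1.06-fold. The beta subunit gene Etfb had 6.53, 6.57, 6.38 and 6.34 (6.46 ± 0.11), with replicates 1 and 2 above replicates 3 and 4. The oxidoreductase gene Etfdh had 1.88, 1.95, 2.00 and 1.66 (1.87 ± 0.15), with replicate 4 lowest. The 3 genes did not share an order of arrays.

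**Figure D2:**
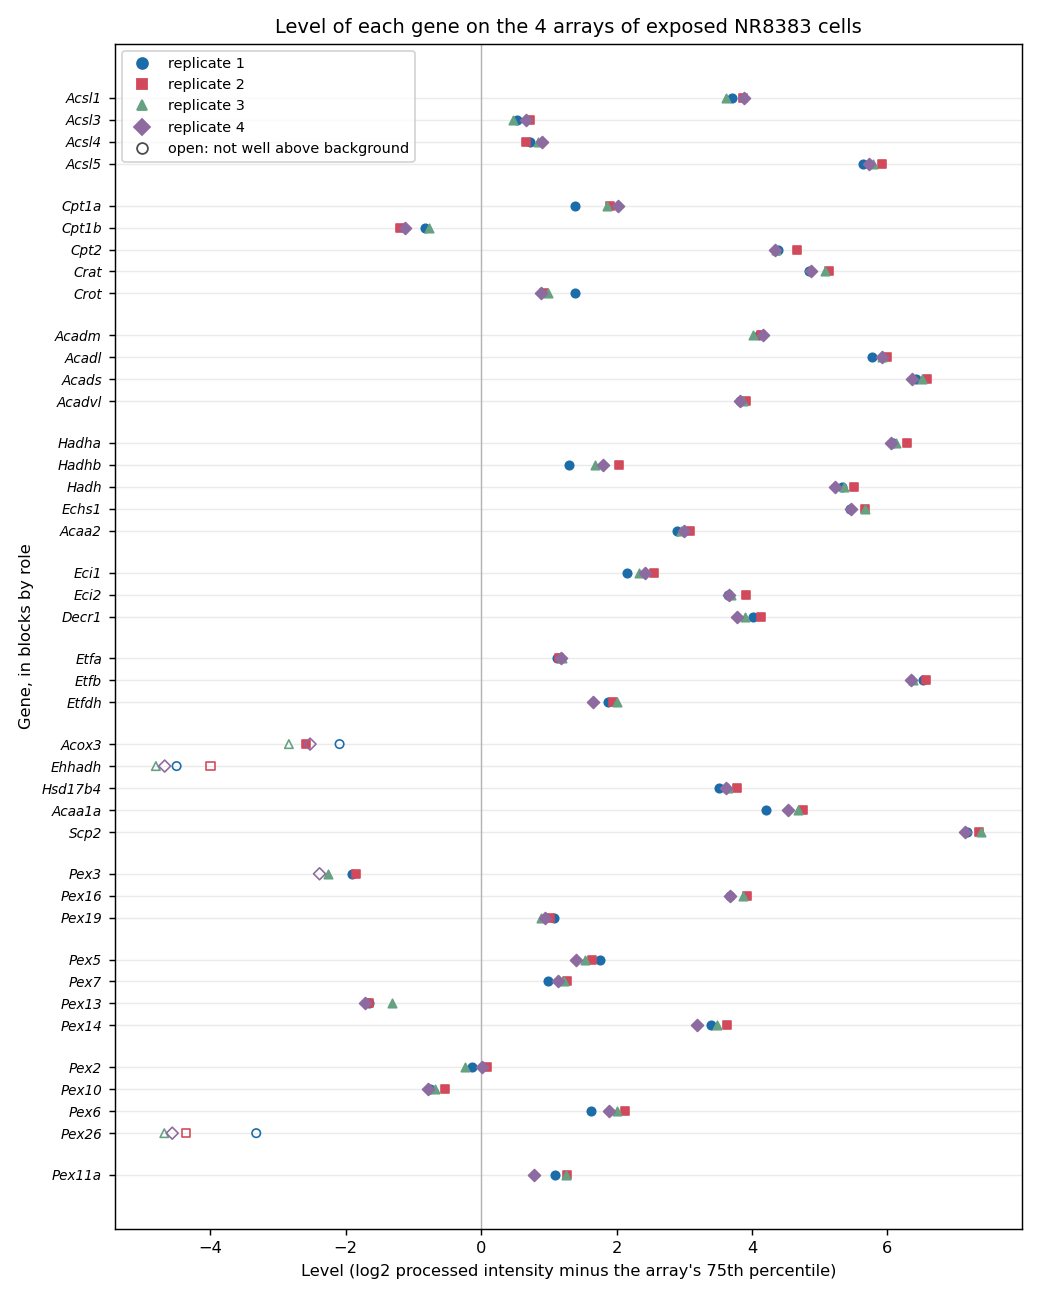
Level of each of the 41 genes (vertical axis, in blocks by role) on the 4 arrays, in log2 units relative to the 75th percentile of each array (horizontal axis). Each symbol is 1 replicate, and open symbols are not well above background. The symbols of Etfa and Acadvl lie almost on top of each other, replicate 1 is the lowest in Cpt1a and the highest in Crot, and all symbols of Ehhadh and Pex26 are open.

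Peroxisomal oxidation was detected for 3 of 5 genes, and the genes missing were Acox3 and Ehhadh. Scp2, the sterol carrier protein gene that also encodes the thiolase of branched chains, had levels of 7.17, 7.35, 7.39 and 7.15 (7.27 ± 0.12). Hsd17b4, the bifunctional enzyme of branched and very long chains, had 3.52, 3.77, 3.65 and 3.62 (3.64 ± 0.11). Acaa1a, a straight-chain thiolase, had 4.21, 4.76, 4.68 and 4.53 (4.55 ± 0.24), with replicate 1 lowest in a span of 0.55 log2 units. Ehhadh, the classical bifunctional enzyme of straight chains, had a signal not well above background on each array, with processed intensities of 4.83, 5.88, 2.28 and 2.50. On none of the 4 arrays did these reach the lowest intensity of a marked spot, which was 22.3, 11.3, 10.8 and 12.1. Acox3, an oxidase of branched chains, passed on replicate 2 alone, with levels of -2.09, -2.59, -2.84 and -2.53. Its intensity of 25.6 on replicate 1 lay above the 15.6 of replicate 2 but below the 99th percentile of the negative controls there.

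The peroxins that insert membrane proteins were detected, with Pex3 at the limit. Pex16, which recruits Pex3 to the membrane, had levels of 3.67, 3.93, 3.86 and 3.67 (3.79 ± 0.13). Pex19, the chaperone and receptor of membrane proteins, had 1.08, 1.01, 0.88 and 0.94 (0.98 ± 0.084). Pex3, the docking site of Pex19, had -1.91, -1.84, -2.26 and -2.39 and was not well above background on replicate 4, where its level is a bound.

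Import of matrix proteins relies on cytosolic receptors and a docking complex, and all 4 of these genes were detected on all arrays. Pex5, the receptor of the C-terminal signal, had levels of 1.75, 1.63, 1.54 and 1.40 (1.58 ± 0.15). Pex7, the receptor of the N-terminal signal, had 0.98, 1.28, 1.22 and 1.13 (1.15 ± 0.13). Pex5 was highest and Pex7 lowest on replicate 1. Pex14, the docking protein, had 3.40, 3.63, 3.48 and 3.18 (3.43 ± 0.19). Pex13, its partner at the membrane, had -1.66, -1.66, -1.31 and -1.72 (-1.59 ± 0.18), with replicate 3 above 3 nearly equal values.

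Receptors are recycled by a ubiquitin ligase of RING peroxins and an ATPase complex anchored by Pex26. The RING peroxin genes Pex2 and Pex10 were detected on all arrays. Pex2 had levels of -0.14, 0.086, -0.24 and 0.017 (-0.069 ± 0.15). Pex10 had -0.75, -0.53, -0.67 and -0.78 (-0.68 ± 0.11). Both were highest on replicate 2. The ATPase gene Pex6 had 1.63, 2.12, 2.01 and 1.89 (1.91 ± 0.21), with replicate 1 lowest. Its anchor gene Pex26 was likewise not well above background on each array, with intensities of 10.9, 4.57, 2.49 and 2.70. Pex11a, which elongates peroxisomes before division, had 1.09, 1.27, 1.26 and 0.78 (1.097 ± 0.23), with replicate 4 lowest.

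None of the genes passed the test for excess variation between replicates. The variance test asked whether a gene's variance over the 4 arrays exceeded that of genes of like level, and 38 of the 41 genes entered it, those whose brightest probe was detected on at least 2 arrays. It called 0 of 38 at an adjusted p under 0.05 (limma, Benjamini-Hochberg over 14913 tested genes), against 0.476% of all tested genes. At an unadjusted p under 0.05 it also called 0 of 38, against 5.06%. The adjusted p-values of the set lay between 0.987 and 0.997, and the smallest unadjusted ones were 0.0595 for Hadhb and 0.0774 for Cpt1a. With 4 arrays a miss does not show that a gene was stable. In 2 of the 37 genes detected on all arrays, Cpt2 and Pex13, 1 replicate stood apart from the other 3 by Dixon's ratio (5.41%, against 5.87% of all such genes).

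The median SD of the 38 genes was 0.13 log2 units, against 0.16 over all tested genes and 0.15 over all named tested genes, and 27 of the 38 lay below the median of all tested genes. A span over 0.5 log2 units was found in 5 of 38 genes (13.2%), which were Hadhb, Cpt1a, Acaa1a, Pex3 and Crot, against 30.4% of all tested genes. The latter include unnamed transcripts, and the share over named genes was not counted. The variance of 12 of the 38 (31.58%) exceeded that of the genes of like level, against 42.84% of all and 40.21% of named tested genes. The median ratio of a gene's variance to that of genes of like level was 0.79 in the set. It was 0.81 over named and 0.85 over all tested genes. With another background correction, normexp on the median signal, the order turned, with a median SD of 0.18 for the set against 0.15 for all tested genes. These are descriptions of a list chosen by name and were not tested.

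**Figure D3:**
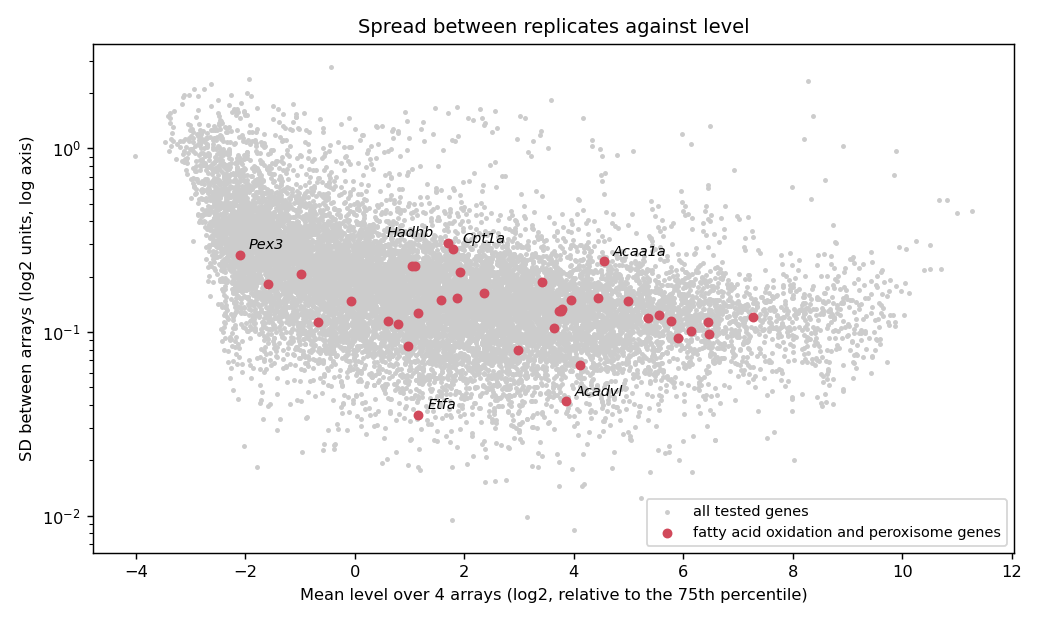
SD between the 4 arrays (vertical log axis, log2 units) against mean level (horizontal axis, log2 relative to the 75th percentile) for all tested genes in grey and the 38 genes of the set in red. The red points lie inside the grey cloud, from Etfa at 0.035 to Hadhb at 0.31.

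With the 75th percentile over all probes as the scale, 25 of the 38 genes were highest on replicate 2, a count that 4 other scalings lowered to between 14 and 17. With each gene set against its own mean, the median over the 38 genes was -0.065, 0.13, 0.0095 and -0.075 log2 units on replicates 1 to 4, a range of 0.20. Over all tested genes the medians were -0.045, 0.069, 0.015 and -0.024, a range of 0.11, in the same direction on every array. The 25 genes highest on replicate 2 made up 65.79% of the set, against 38.6% of all and 46% of named tested genes, and 3, 6 and 4 genes were highest on replicates 1, 3 and 4. The count depended on the scaling of the arrays. It was 14 with the 75th percentile taken over detected probes, 17 with that over all spots, 16 after quantile normalization, 17 after cyclic loess and 26 with the normexp background correction. The share over all tested genes was counted under the main scaling alone, so these counts have no background beside them. With the detected-probe percentile the median on replicate 2 was 0.047, still the highest of the 4, while that of all tested genes was -0.0092. The range of medians was 0.20 with all arrays and 0.076 without replicate 2. Replicate 2 also had the most marked probes, 40.88% against 37.46% to 37.98% on the others, and its part in the result was not tested.

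**Figure D4:**
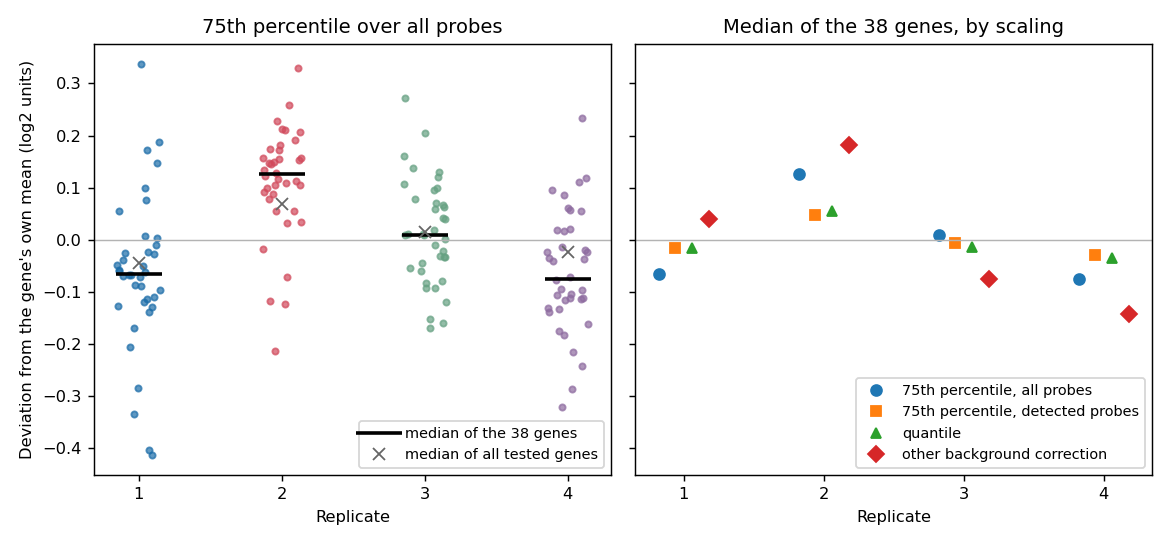
Left, deviation of each of the 38 genes from its own mean over the 4 arrays (vertical axis, log2 units) by replicate, with the median of the set as a bar and that of all tested genes as a cross. Right, the median of the set under 4 ways of scaling, where replicate 2 is the highest under each, between 0.047 and 0.18.

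By role, the genes were counted under the main scaling alone and with no test between roles. Those highest on replicate 2 were spread as follows, beside 38.6% of all and 46% of named tested genes. All 3 auxiliary genes, all 3 detected genes of receptor recycling and ubiquitination and 4 of 5 genes from hydration to thiolysis were highest there, as were 3 of 4 acyl-CoA dehydrogenase genes. The exception among the latter was Acadm, highest on replicate 4. The count was 2 of 3 tested genes each in peroxisomal oxidation and in membrane biogenesis. It was 2 of 4 each in activation and in import receptors and docking. In carnitine transfer it was 2 of 5 and in electron transfer 1 of 3. Pex11a, alone in its role, was also highest on replicate 2. In the other direction, 5 of the 38 genes were below their own means on replicate 2, beside 4834 of 14911 tested genes. These were Acsl4, Cpt1b, Crot, Pex13 and, by a narrow margin, Etfa. Cpt1b was the farthest below.

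Only 3 genes of the set had more than 1 probe, and these probes did not always move together. All 3 probes of Hadha were detected on all arrays. The 2 brighter ones were highest on replicate 2, at 0.15 and 0.088 log2 units above their own means, and the third was lowest there, at -0.14. Both probes of Acaa1a were highest on replicate 2, at 0.21 and 0.22, but on replicate 1 they were at -0.33 and -0.085, so that the SD was 0.24 for one and 0.15 for the other. The close paralog Acaa1b may contribute to either probe. Pex19 had 5 probes, of which 3 were detected on every array and 2 on none. The 3 were highest on replicates 1, 4 and 3, and the probe used above had the smallest SD, 0.084 against 0.12 and 0.21.

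**Figure D5:**
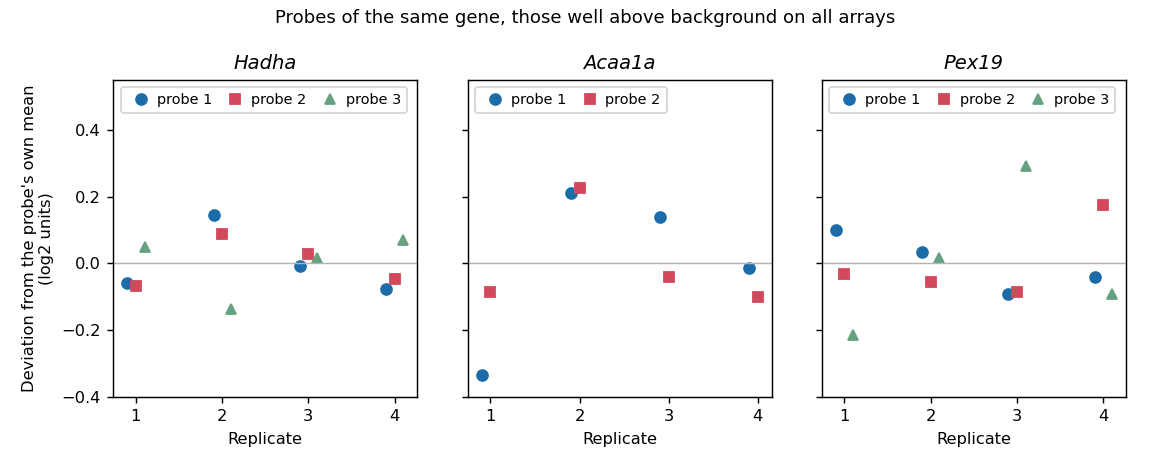
Deviation of each probe from its own mean over the 4 arrays (vertical axis, log2 units) by replicate (horizontal axis) for the genes with several probes, showing those detected on all arrays. On replicate 2, probes 1 and 2 of Hadha lie above 0 and probe 3 below, the probes of Acaa1a coincide, and the probes of Pex19 keep no common order.

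Other genes of the pathway were also widely detected. Of 73 listed genes of lipid uptake, transport, peroxisomal metabolism and control, 70 had a probe and 55 (78.57%) were detected on all arrays, against 47.9% of all named genes. The difference from the 90.24% of the set was not tested. Acad8, Acad10 and Lonp2 were not matched to a probe. Acot1 was detected on 1 array and Pex11g on 2. The 13 not well above background on any included the carnitine importer Slc22a5, the peroxisomal enzymes Acox2 and Phyh, the thioesterase Acot4, the nuclear receptor Ppara and its coactivator Ppargc1a, the synthetase Acsl6, the fatty acid binding protein Fabp3, the lipase Lipe, the kinase Pdk4, the ketone body gene Bdh1 and the carboxylase Acacb. Ppara and Pdk4, with Ehhadh of the set, are textbook parts of the PPAR alpha programme of liver, as is Cpt1a, which was detected on all arrays.

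Those with signal covered the neighbouring steps. Slc25a20, the carnitine-acylcarnitine carrier between Cpt1a and Cpt2, had levels of 2.95, 3.26, 3.08 and 2.98 (3.07 ± 0.14). Abcd3, a transporter of acyl-CoA into peroxisomes, had 3.87, 3.84, 3.85 and 3.92 (3.87 ± 0.037). Among the members of the set only Etfa had a smaller SD. Cat, the peroxisomal catalase, had 0.34, 0.092, 0.55 and 0.67 (0.41 ± 0.25), lowest on replicate 2. Ppard, a nuclear receptor of fatty acids, had -1.84, -1.74, -2.08 and -1.96 (-1.91 ± 0.15). Pparg, another PPAR, was named after its values were seen. It was detected on all 4 arrays, with levels of 6.30, 6.19, 6.27 and 6.05 (6.20 ± 0.11). The scavenger receptor and fatty acid importer Cd36 had 6.81, 6.87, 7.07 and 6.998 on the 4 arrays.

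The variance test called 0 of the 56 of these genes that entered it, against 0.476% of all tested genes. An unadjusted p under 0.05 (limma) was found in 3 of the 56, against 5.06% of all tested genes. Plin2, the coat protein of lipid droplets, had levels of 5.18, 5.71, 5.53 and 5.85 (5.57 ± 0.29), lowest on replicate 1 as Cpt1a was (adjusted p = 0.938, limma). Amacr and Mlycd were named after their values were seen. Amacr, the racemase that prepares branched chains for peroxisomes, had -0.58, 1.18, -0.37 and -0.87 (-0.16 ± 0.91), high on replicate 2 alone (adjusted p = 0.127, limma). Its adjusted p was 0.0102 without replicate 1, 0.00674 without replicate 3 and 0.988 without replicate 2, and 0.836 with the mean of its 2 probes. It was also below 0.05 with normexp (0.0125), without a filter on dim probes (0.0068) and with a robust prior (0.0134). In the remaining settings it was above 0.05 (limma). It was 0.477 with the detected-probe percentile, 0.435 with the all-spot percentile, 0.389 after quantile normalization and 0.411 after cyclic loess. It was 0.536 with a prior that has no trend, 0.072 with only genes detected on all arrays and 0.163 without replicate 4. Mlycd, the decarboxylase that removes malonyl-CoA, had 1.93, 1.77, 1.45 and 0.9995 (1.54 ± 0.41), with an adjusted p of 0.602 (limma) and of 0.00792 with the normexp correction. No other setting put Mlycd under 0.05. The companions' highest level fell on replicate 2 in 30 of 56 genes, a share of 53.57%, against 38.6% of all and 46% of named tested genes.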

How the data were processed

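Total RNA of 4 replicates of exposed NR8383 cells was hybridised to 1-colour Agilent arrays. These shared 1 slide and 1 scan, which left no block to fit, and position cannot be told apart from replicate. The authors deposited spot intensity on a linear scale, from Feature Extraction 11.0.1.1 per the submitters' processing notes. That software subtracted background and detrended each array, per the file headers, without normalizing between arrays.

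Log2 intensity was averaged over a probe's spots, leaving out control and non-uniform spots, and taken relative to the 75th percentile over probes of that array. Accessions without versions were matched to the RefSeq table of GRCr8, used for names and promoters. The probe with the highest mean stood for a gene. The number of arrays limits the precision. The variance test (limma 3.58.1, R 4.3.3) set the residual variance around an intercept against a squeezeVar prior with a trend on level (prior df 6.52) in a one-sided F test at 0.05 over 14913 genes and unnamed transcripts. It was also run on data simulated from its own fitted prior with normal noise. Such a run cannot show how the test fares where those assumptions fail.

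The members, lists and tests were chosen with earlier results of these data known. All 41 members are named, and of the companions those detected on no or some arrays, those called, and a few fixed ones. Some genes that this rule takes are left out of the text. Alternatives covered background correction, scaling, normalization, filter, probe choice, prior and replicates. The normexp correction, planned on mean signal, ran on median signal and median background with an offset of 50. Planned comparisons of protein sequences were not run.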

Additional observations from a re-analysis of the deposited data

Results flagged for a closer look

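In 6 genes 1 replicate stood apart from the other 3, with a gap to its nearest neighbour, as a share of the whole range, above Dixon's critical value for 4 samples. Chance alone does this in about 1 of 20 groups, and it did so in 2 of the 37 genes of the set detected on all arrays (5.41%), in 4 of 55 companions (7.27%) and in 5.87% of all 13438 such genes. In the set these were Cpt2, high on replicate 2 with a share of 0.864, and Pex13, high on replicate 3 with 0.848. Among the companions, Ivd was low on replicate 1 with 0.862 and Abcd2 high on replicate 1 with 0.846. Slc27a4 was high on replicate 2 with 0.851, and Oxct1 low on replicate 4 with 0.899.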

How the results depend on the processing

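The count of 0 called genes of the set held under 14 alternatives, with the smallest adjusted p of a member at 0.458 (no filter on dim probes) and at an unadjusted p under 0.05 at most 3 members. The calls over all tested genes moved more, from 71 to 235 with normexp, 356 without a filter, 207 with a robust prior, 0 with one that has no trend, 0 with the detected-probe percentile, 1 with each of the all-spot percentile, quantile normalization and cyclic loess, and 91, 27, 161 and 43 without replicates 1, 2, 3 and 4. Between 36 and 38 members and between 52 and 55 companions were detected on all arrays under every rule tried. The members' median SD was 0.182 with normexp against 0.13. The range of the members' median deviation was 0.20, and it was 0.323 with normexp, 0.0772 with the detected-probe percentile, 0.0884 with the all-spot percentile, 0.0896 with quantile normalization, 0.0897 with cyclic loess and between 0.0764 (without replicate 2) and 0.204 (without replicate 3) with 1 replicate left out; the cause was not tested. The detected-probe and all-spot percentiles shifted the median level by -3.52 and -2.36 log2 units. Normexp shifted it by -0.41 but moved genes unevenly, for example Ehhadh from -4.49 to -1.21 and Acadl from 5.90 to 4.99. The levels of Hadha, Acaa1a and Pex19 moved with the mean over all probes, to 4.88, 3.24 and -1.28. No paired analysis was possible because the samples form 1 group.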
